A study of Mus musculus with 26 samples.

Results

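IgM clonotypes of spleen were compared with IgM clonotypes of lymph node in wild-type (WT) mice given an association with *Staphylococcus epidermidis*, which lives on healthy skin. A clonotype was a V gene, a J gene and a junction nucleotide sequence with at least 1 copy read with the IgM constant gene (IGHM). Counted within replicates, there were 753054 such clonotypes in spleen and 232709 in lymph node. Together these 985763 clonotypes were 76.6% of the 1286620 clonotypes of all isotypes in both tissues, out of 1674869 in the whole series.

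The series sequenced heavy-chain B cell receptor transcripts in bulk from skin, spleen and lymph node. Spleen and lymph node each had 4 biological replicates, numbered 1 to 4, with 2 technical libraries per replicate whose copies were added together here. Every replicate of both tissues was WT and carried the same bacterial association, so there is no unassociated group, and neither age nor sex is stated in the sources read. The tissue was taken from the sample titles, since the tissue field reads ear skin for every sample. The files hold heavy chains only, so the tissue could not be checked against marker genes. The labels do not state whether the biological replicates were separate animals, so p-values measure the spread between these samples.

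IgM is the first antibody class a B cell makes, and naive B cells carry it together with IgD from the same rearranged V, D and J segments. The third complementarity-determining region (CDR3) spans the joint of these segments and is the most varied part of the heavy chain. Spleen is known to hold follicular B cells, marginal zone B cells and some B-1 cells and plasma cells, while lymph nodes hold mostly follicular B cells. In mice, B-1 cells are known for recurrent heavy chains such as IGHV11-2 and IGHV12-3 against phosphatidylcholine and IGHV7-1 against phosphorylcholine.

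The ends that the 4 J genes most often gave to a junction are shown because J gene use and CDR3 length are compared below. They run 5′ to 3′ in lower case, up to the conserved tryptophan codon.
IGHJ1: actggtacttcgatgtctgg
IGHJ2: ctactttgactactgg
IGHJ3: ctggtttgcttactgg
IGHJ4: actatgctatggactactgg
The IGHJ1 and IGHJ4 ends are 20 bases long and the IGHJ2 and IGHJ3 ends 16 bases.

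The 4 clonotypes found in all 8 replicates are shown next because they are the IgM rearrangements common to every sample. Capitals mark the bases between the match to the commonest start of the V gene and the match to the commonest J end. All of these V genes lie on chromosome 12.
IGHV7-1/IGHJ1: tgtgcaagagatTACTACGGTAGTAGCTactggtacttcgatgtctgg
IGHV11-2/IGHJ1, 39 nucleotides: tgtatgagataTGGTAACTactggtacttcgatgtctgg
IGHV11-2/IGHJ1, 42 nucleotides: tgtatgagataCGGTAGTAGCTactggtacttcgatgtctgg
IGHV2-6/IGHJ1: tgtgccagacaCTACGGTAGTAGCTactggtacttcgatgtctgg
All 4 used IGHJ1 with its whole common end, and 8 to 16 bases stood between the V and J matches.

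Depth differed between replicates. IgM copies numbered 65472, 752551, 271524 and 354527 in spleen replicates 1 to 4, against 73761, 156357, 88289 and 153561 in lymph node. Clonotypes of a single copy were 36.6% to 88.7% of spleen IgM clonotypes, against 36.3% to 70.3% of lymph node IgM clonotypes. Number 1 held the fewest clonotypes in each tissue (15939 in spleen and 22556 in lymph node) and the most copies per clonotype (4.11 in spleen and 3.27 in lymph node). From 1.39% to 6.40% of clonotypes were found in both technical libraries of their replicate. Some clonotypes had 100 or more IgM copies in one technical library and 0 in the other: 4, 58, 16 and 21 in spleen, against 0, 7, 0 and 6 in lymph node. In lymph node 4 these held 14.0% of IgM copies, among them 1 of IGHV9-3 with IGHJ2 that had 10068 IgM copies.

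V gene use differed between the tissues. The number of IgM clonotypes per V gene was compared with edgeR's quasi-likelihood test, each clonotype counted once, at a Benjamini-Hochberg adjusted p under 0.05. Of 98 V genes tested, 39 (39.8%) passed the test. Of these, 21 (21.4%) were higher in spleen and 18 (18.4%) lower in spleen. At equal IgM copies, and again with no filter on low counts, 34 were called, 15 higher and 19 lower. Fold changes were taken after edgeR's TMM scaling, so they can differ from ratios of the shares given. In 33 of the 39 the spleen and lymph node replicates did not overlap, and this held for 39 of all 98 tested genes. Calls and overlap come from the same counts, so the overlap is no separate support. DESeq2 also called 39 genes, 37 of them the same.

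All 4 tested genes of the IGHV14 family rose in spleen, with a median log2 fold change of 1.62 beside 0.07 over all 98 genes. IGHV14-3 (chr12:114059845-114060273, GRCm38.p6, the assembly behind mm10) took 4.20%, 1.40%, 2.15% and 2.39% of IgM clonotypes in spleen, against 0.709%, 0.754%, 0.942% and 0.730% in lymph node. Every spleen replicate was above every lymph node replicate (log2 fold change 1.88 ± 0.32 SE, edgeR adjusted p = 0.00347).

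IGHV14-1 (chr12:113931953-113932246) took 0.395%, 0.119%, 0.217% and 0.195% of spleen clonotypes, against 0.0665%, 0.0609%, 0.0671% and 0.0666% of lymph node clonotypes. Its groups did not overlap (log2 fold change 1.93 ± 0.37 SE, edgeR adjusted p = 0.00505). The other IGHV14 genes were more scattered. IGHV14-2 (log2 fold change 1.35, edgeR adjusted p = 0.0246) and IGHV14-4 (1.11, edgeR adjusted p = 0.0149) had a spleen replicate 2 within the lymph node range. IGHV14-2 lost its call without spleen replicate 4, without lymph node replicate 1, 2 or 3 and with copy weights. IGHV14-4 lost it without lymph node replicate 2, without single-copy clonotypes, among clonotypes of both technical libraries and with copy weights. With numbers 2 to 4 of both tissues alone, IGHV14-1 (1.60) and IGHV14-3 (1.46) were called (edgeR adjusted p = 0.00611 for both), and IGHV14-2 (0.82, edgeR adjusted p = 0.0726) and IGHV14-4 (0.75, edgeR adjusted p = 0.0516) were not.

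Summed over its genes, IGHV14 made up 8.64%, 2.87%, 4.59% and 5.15% of spleen IgM clonotypes, against 1.81%, 2.15%, 2.18% and 2.31% of lymph node IgM clonotypes. The family share was 5.31% ± 2.42 in spleen and 2.11% ± 0.214 in lymph node (n = 4 each, SD; exact two-sided permutation test p = 0.0286, adjusted p = 0.143 over 10 families). With 4 against 4 replicates, 0.0286 is the smallest p this test can give. Spleen replicate 1 was the highest of the 8 and spleen replicate 2 the lowest of spleen. With clonotypes weighted by copies, the family held 9.19%, 1.94%, 5.52% and 5.08% in spleen, against 1.83%, 2.55%, 2.37% and 2.56% in lymph node. With those weights the tissues overlapped (exact permutation test p = 0.114, adjusted p = 0.381).

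In the IGHV3 family the direction was opposite. Of its 5 tested genes 4 were lower in spleen and 0 higher, with a median log2 fold change of -1.32. IGHV3-8 (chr12:114322376-114322666) took 0.100%, 0.196%, 0.182% and 0.153% of spleen clonotypes, against 0.536%, 0.560%, 0.657% and 0.538% of lymph node clonotypes. The highest spleen replicate was well under the lowest lymph node replicate (log2 fold change -1.67 ± 0.19 SE, edgeR adjusted p = 0.000268).

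IGHV3-1, IGHV3-3 and IGHV3-5 were rarer. IGHV3-1 was absent among the 15939 clonotypes of spleen replicate 1, where a count of 0 allows a share of up to 0.0188%. It took 0.0224%, 0.0150% and 0.00867% of clonotypes in spleen replicates 2 to 4, against 0.0621%, 0.0566%, 0.0863% and 0.0758% in lymph node (log2 fold change -2.15 ± 0.39 SE, edgeR adjusted p = 0.00439). The fold changes of IGHV3-3 and IGHV3-5 were -1.32 and -1.29 on the log2 scale (edgeR adjusted p = 0.0171 and 0.0108). Both lost their calls when clonotypes were joined into lineages, and IGHV3-3 also without spleen replicate 4 or lymph node replicate 2. As a family IGHV3 made up 2.92% ± 0.832 of spleen and 4.74% ± 0.120 of lymph node IgM clonotypes (n = 4 each, SD; exact permutation test p = 0.0286, adjusted p = 0.143).

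IGHV1 is the largest mouse V family. Of its 51 tested genes 13 (25.5%) were higher in spleen, 11 (21.6%) lower and 27 not past the test, shares near the 21.4% and 18.4% over all tested genes. Its summed share was 62.2% ± 4.86 in spleen and 62.3% ± 0.660 in lymph node (n = 4 each, SD). IGHV1-76 (chr12:115847881-115848174) took 2.10%, 1.98%, 2.36% and 2.05% of spleen clonotypes, against 1.08%, 1.18%, 1.04% and 1.12% of lymph node clonotypes. Both tissues were tight and apart (log2 fold change 1.10 ± 0.12 SE, edgeR adjusted p = 0.000268). IGHV1-75 and IGHV1-77, which lie close to it, were also higher in spleen (0.90 and 0.96 on the log2 scale), while IGHV1-74, next to IGHV1-75 among the named genes, was lower (-1.12). IGHV1-77 lost its call among clonotypes of both technical libraries. IGHV1-74 lost its call among clonotypes found in both technical libraries and when clonotypes were weighted by copies.

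IGHV1-39 (chr12:114914599-114914892) took 0.577%, 0.342%, 0.590% and 0.482% of spleen clonotypes, against 1.35%, 1.37%, 1.40% and 1.51% of lymph node clonotypes. The groups did not overlap (log2 fold change -1.35 ± 0.20 SE, edgeR adjusted p = 0.00141). IGHV1-7 was also lower in spleen (log2 fold change -1.43 ± 0.35 SE, edgeR adjusted p = 0.0111), with a spleen replicate 2 of 0.861% close to the lowest lymph node value of 1.17%. IGHV1-4 (-1.06, edgeR adjusted p = 0.0234) lost its call in 8 of 18 alternatives, among them those without spleen replicate 3 or 4 or lymph node replicate 1 or 3. IGHV1-47 was lower too (-1.80, edgeR adjusted p = 0.00505) but rare, at 34 clonotypes over the 4 lymph node replicates. IGHV1-5 was higher in spleen (1.29, edgeR adjusted p = 0.0111) and lost its call without lymph node replicate 2 and with copy weights.

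In the other families, IGHV5-9 (chr12:113661771-113662228) took 0.979%, 0.812%, 0.817% and 0.979% of spleen clonotypes, against 0.346%, 0.350%, 0.379% and 0.397% of lymph node clonotypes. The tissues did not overlap (log2 fold change 1.45 ± 0.17 SE, edgeR adjusted p = 0.000269). The other 10 tested IGHV5 genes gave 0 further calls higher in spleen and 1 lower. IGHV9-4 was higher in spleen (1.14 on the log2 scale, edgeR adjusted p = 0.00505) and IGHV13-2 lower (-1.60, edgeR adjusted p = 0.00505). IGHV9-4 lost its call among clonotypes of both technical libraries, and IGHV13-2 without single-copy clonotypes and with copy weights. Of the 8 tested IGHV2 genes 0 were called. Of the 20 named genes, 10 kept their call in every alternative in which they were tested.

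**Figure D1:**
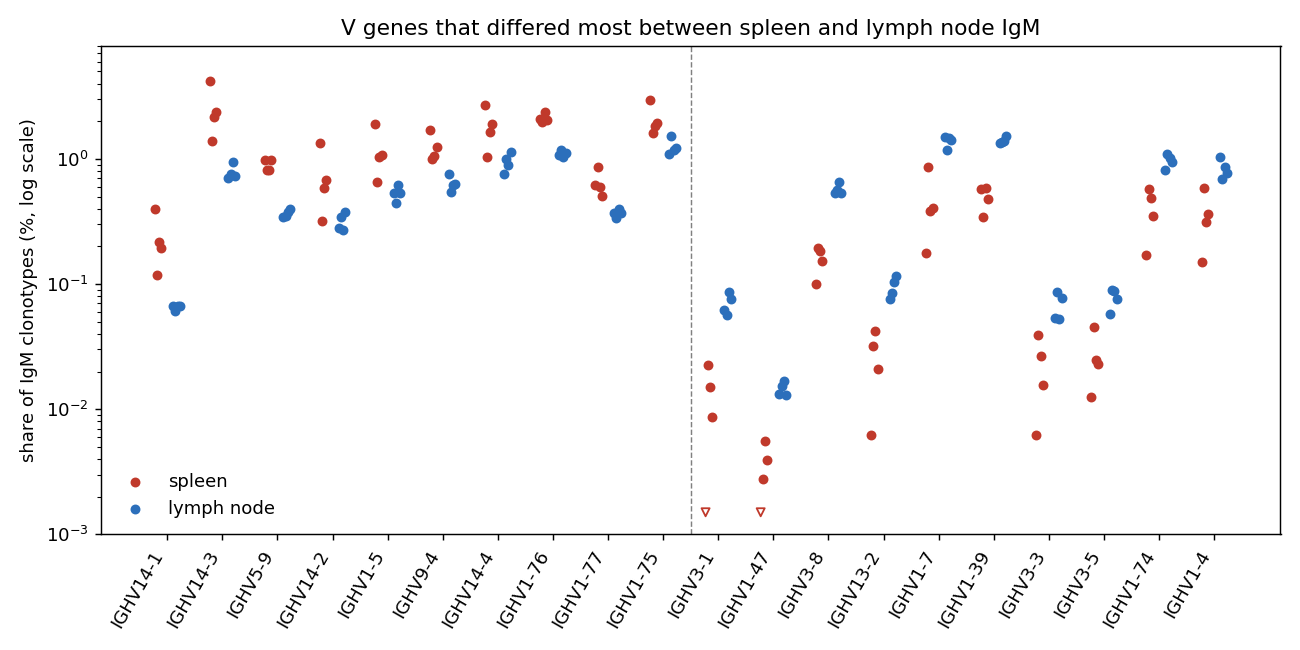
Share of IgM clonotypes (percent, log scale) held by each of the 20 named V genes, 1 point per replicate, spleen left of lymph node within each gene. Genes left of the dashed line were higher in spleen and genes right of it lower, and open triangles mark a replicate with 0 clonotypes of the gene. The replicates of IGHV14-2 and IGHV14-4 overlap between the tissues and those of the other 18 genes do not.

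Near-identical V genes can share reads, and no label or header says how the authors' assignment treated them. Across the 93 tested genes with an annotated position, the log2 fold change had a Pearson correlation with position of 0.05 and a Spearman correlation of 0.08, given as a description since neighbouring genes share sequence and primers.

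The genes known for B-1 cells did not pass the test. By clonotypes, IGHV11-2 (edgeR adjusted p = 0.653), IGHV12-3 (edgeR adjusted p = 0.411) and IGHV7-1 (edgeR adjusted p = 0.222) were not called, and IGHV11-1 had too few clonotypes to be tested. IGHV5-2, a gene known for its frequent use early in life, was not called either (edgeR adjusted p = 0.290).

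By copies, too, the tissues overlapped. IGHV7-1 held 0.475%, 2.76%, 0.929% and 0.569% of spleen IgM copies, against 0.870%, 0.412%, 0.567% and 0.924% of lymph node IgM copies. The IGHV7-1/IGHJ1 clonotype shown above had 203, 14742, 1411 and 946 copies in spleen, against 371, 199, 209 and 1007 copies in lymph node, and it was the largest IgM clonotype of spleen replicate 2. Clonotypes with the same CDR3 amino acids as this one held 66.2%, 71.1%, 56.1% and 47.1% of all IGHV7-1 copies in spleen, against 58.3%, 31.2%, 41.9% and 71.3% in lymph node.

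The shorter IGHV11-2/IGHJ1 clonotype had 4, 614, 1465 and 234 copies in spleen, against 9, 684, 404 and 96 copies in lymph node. The longer one had 101, 331, 283 and 40 copies in spleen, against 317, 162, 59 and 35 copies in lymph node. Both were present in every replicate, and in both the groups overlapped. The IGHV2-6/IGHJ1 clonotype had 19, 228, 45 and 68 copies in spleen, against 1, 11, 3 and 2 copies in lymph node, from unequal depths. Spleen replicate 1, the smallest replicate at 65472 IgM copies, was also above every lymph node replicate. The difference was not tested.

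Few other clonotypes recurred in every replicate of a tissue. In all, 17 clonotypes were in all 4 spleen and 0 lymph node replicates, and 1 was in all 4 lymph node and 0 spleen replicates. Spleen replicates 2 to 4 held more IgM copies than any lymph node replicate, and no test was made. The 5 with the most copies of the first kind and the 1 of the second kind are shown because they are the recurrent junctions seen in one tissue alone, with capitals as above.
IGHV6-3/IGHJ2, spleen: tgcacagGCAGTAactttgactactgg
IGHV14-3/IGHJ4, spleen: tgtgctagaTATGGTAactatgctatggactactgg
IGHV1-18/IGHJ3, spleen: tgtgcaaCTGGGACgtttgcttactgg
IGHV1-75/IGHJ2, spleen: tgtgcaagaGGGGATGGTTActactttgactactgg
IGHV1-55/IGHJ3, spleen: tgtgcaagaGAGgcttactgg
IGHV10-1/IGHJ2, lymph node: tgtgtgagacaTAGTAactttgactactgg
These had 3 to 11 bases between the V and J matches. The first had 9, 34, 20 and 23 copies in the spleen replicates, and the lymph node one had 4, 3, 6 and 2 copies in the lymph node replicates.

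J gene shares lay apart between the tissues for IGHJ3 and IGHJ4. IGHJ3 was used by 12.8%, 9.73%, 11.8% and 12.4% of spleen IgM clonotypes, against 7.16%, 8.02%, 7.98% and 8.23% of lymph node IgM clonotypes. IGHJ4 was used by 30.7%, 34.5%, 32.4% and 31.5% in spleen, against 40.3%, 36.2%, 38.5% and 37.7% in lymph node. Every spleen replicate had more IGHJ3 and less IGHJ4 than every lymph node replicate.

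The mean IGHJ3 share was 11.7% ± 1.36 in spleen and 7.85% ± 0.469 in lymph node, and the mean IGHJ4 share 32.3% ± 1.64 in spleen and 38.2% ± 1.68 in lymph node (n = 4 each, SD; exact two-sided permutation test p = 0.0286 for both, adjusted p = 0.0571 over 4 J genes). Neither passed the threshold after adjustment, so the count of J genes past it was 0, with 2 at an unadjusted p under 0.05. IGHJ2 (35.8% ± 0.290 in spleen and 34.2% ± 1.02 in lymph node, exact permutation test p = 0.0571) and IGHJ1 (20.3% ± 0.267 in spleen and 19.8% ± 0.372 in lymph node, exact permutation test p = 0.0857) overlapped. When each replicate was reduced to 65472 IgM copies, 3 J genes passed, 2 higher in spleen and 1 lower (exact permutation test, adjusted p = 0.0381).

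The shift was present within V families. The mean IGHJ3 share was higher in spleen in 10 of 10 families, 7 of them with no overlap, and the mean IGHJ4 share was lower in spleen in 10 of 10 families, 8 of them with no overlap. Within IGHV1, IGHJ3 was used by 12.7%, 9.82%, 11.9% and 12.7% of clonotypes in spleen, against 7.31%, 8.25%, 8.17% and 8.23% in lymph node (exact permutation test p = 0.0286, adjusted p = 0.0408 over 10 families). The groups did not overlap. That p is the smallest this test can give, and the families come from the same replicates, so they are not independent. These family measures were added after the data were seen, and the overall IGHJ3 share had an exact permutation test adjusted p of 0.0571. The IGHV14 family, itself higher in spleen, had the highest IGHJ3 share in both tissues, 19.6% ± 2.35 in spleen and 15.4% ± 1.40 in lymph node, with overlap (exact permutation test, adjusted p = 0.0635). In IGHV10 the mean IGHJ4 share was 46.9% ± 1.05 in spleen and 47.1% ± 3.61 in lymph node (n = 4 each, SD).

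**Figure D2:**
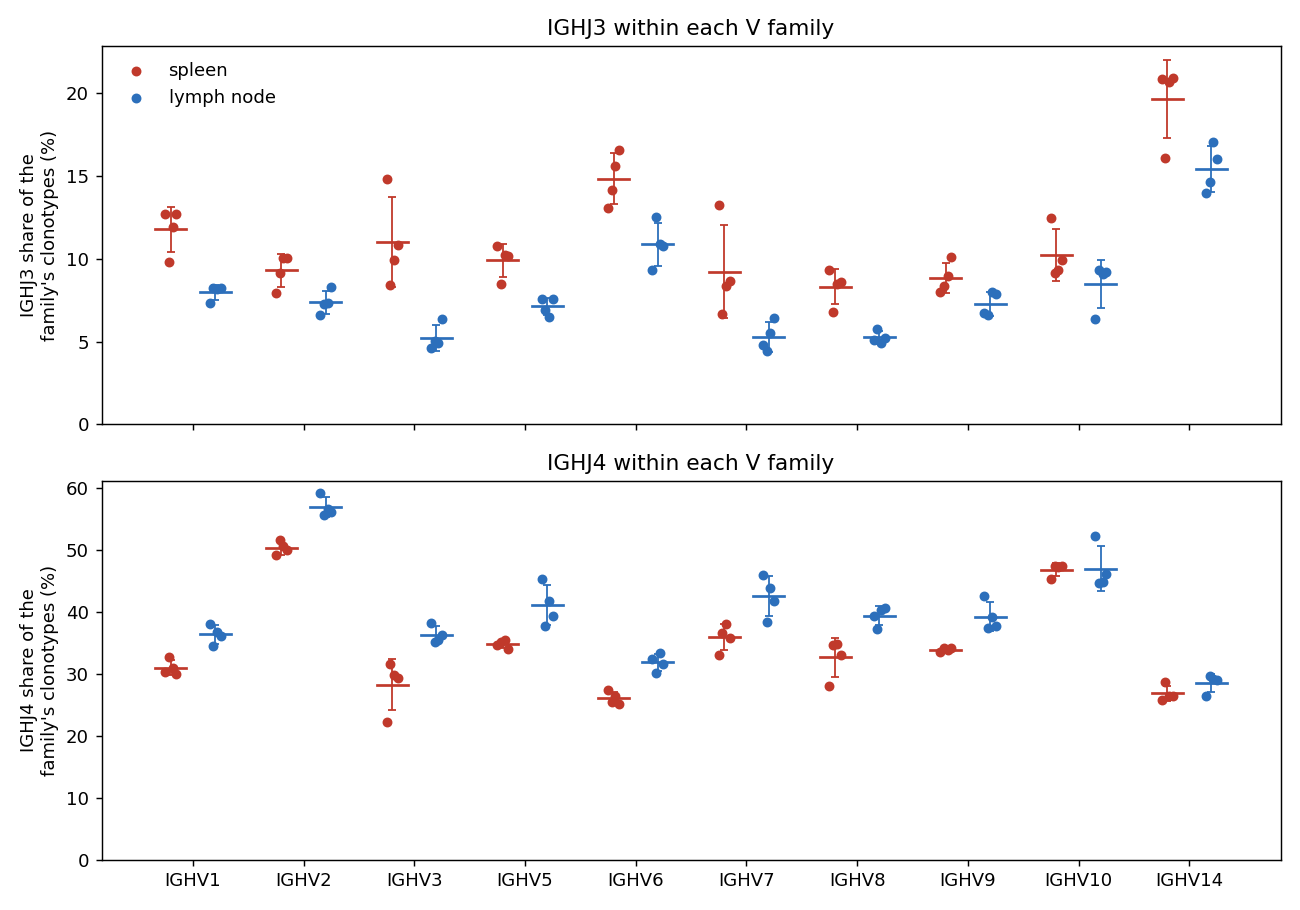
Share of each V family's IgM clonotypes that used IGHJ3 (upper panel) and IGHJ4 (lower panel), in percent, 1 point per replicate, spleen left of lymph node, with bars for the mean and whiskers for the SD (n = 4). Spleen means lie above lymph node means for IGHJ3 and below them for IGHJ4 in all 10 families, with IGHV10 the closest for IGHJ4.

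Mean CDR3 length was lower in every spleen replicate than in every lymph node replicate, though its adjusted p missed the threshold. The mean CDR3 length per IgM clonotype was 12.0, 11.9, 11.9 and 11.9 amino acids in spleen, against 12.3, 12.2, 12.3 and 12.2 in lymph node. The tissues did not overlap (11.9 ± 0.0689 in spleen and 12.3 ± 0.0474 in lymph node, n = 4 each, SD; difference -0.330; exact two-sided permutation test p = 0.0286, adjusted p = 0.143 over 5 measures). CDR3s of 8 residues or fewer were 10.8% ± 0.394 in spleen, against 8.25% ± 0.129 in lymph node. CDR3s of 16 residues or more were 9.15% ± 0.513 in spleen, against 10.9% ± 0.501 in lymph node, and neither class overlapped between the tissues.

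The length difference was smaller but present at equal J use. With each replicate's J genes weighted to the same mix, the difference was -0.240 amino acids and the tissues did not overlap. Within clonotypes of one J gene, the difference was -0.132 for IGHJ1, -0.318 for IGHJ2 and -0.352 for IGHJ3, each with no overlap, and -0.193 for IGHJ4 with overlap. Over all J genes together, the bases matching the J end numbered 15.2 ± 0.187 in spleen and 15.6 ± 0.0706 in lymph node, with no overlap. This count mixes J genes whose common ends differ in length, so it depends in part on J use. Within IGHJ2 the matching bases numbered 12.5 in spleen and 12.7 in lymph node, with no overlap. The tissues overlapped within IGHJ1 (17.8 in both), IGHJ3 (13.1 in spleen and 13.3 in lymph node) and IGHJ4 (17.4 in spleen and 17.5 in lymph node). The bases between the V and J matches numbered 18.0 ± 0.516 in spleen and 18.5 ± 0.234 in lymph node, with overlap. In this family of 18 junction measures the lowest adjusted p of the exact permutation tests was 0.0643.

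**Figure D3:**
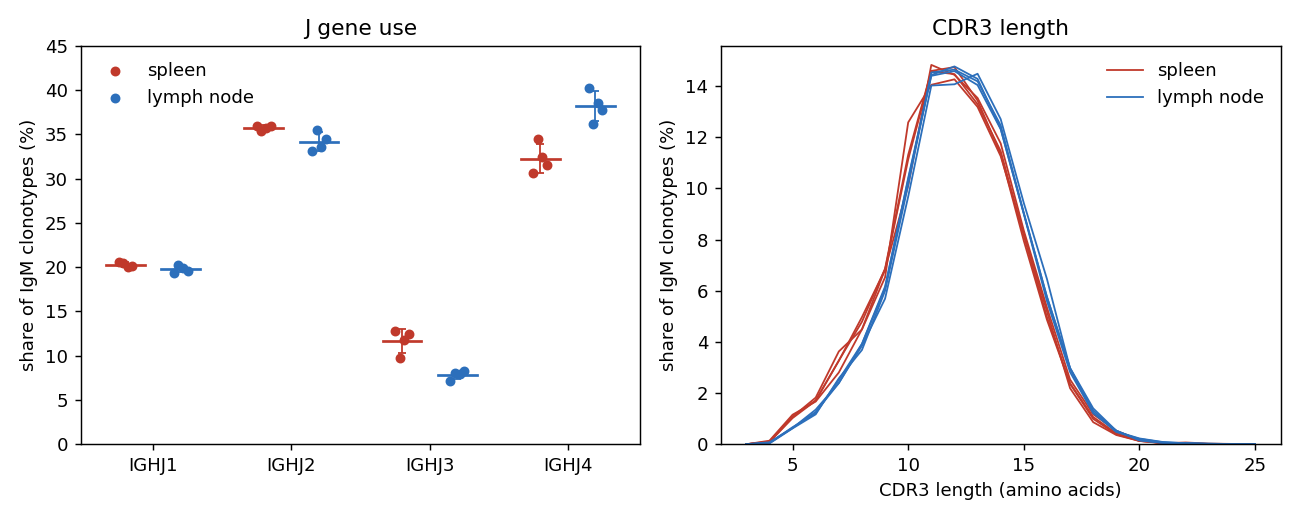
Left, share of IgM clonotypes by J gene (percent), 1 point per replicate, spleen left of lymph node, with bars for the mean and whiskers for the SD (n = 4); IGHJ3 and IGHJ4 do not overlap between the tissues. Right, share of IgM clonotypes at each CDR3 length in amino acids, 1 line per replicate; spleen lines lie higher at short lengths and lymph node lines higher at long lengths.

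Tyrosine, the commonest CDR3 residue here, was 20.5%, 20.7%, 20.7% and 20.7% of CDR3 residues in spleen, against 21.4%, 21.2%, 21.3% and 21.3% in lymph node. Methionine was 2.73% ± 0.154 in spleen and 3.16% ± 0.107 in lymph node, and phenylalanine 5.22% ± 0.108 in spleen and 4.90% ± 0.154 in lymph node (n = 4 each, SD). Glycine was 8.93% ± 0.169 in spleen and 8.44% ± 0.0493 in lymph node (n = 4 each, SD).

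Of 20 amino acids, 9 did not overlap between the tissues: alanine, glutamate, phenylalanine, glycine, threonine and tryptophan were higher in spleen, and isoleucine, methionine and tyrosine lower. All 9 had an exact permutation test p of 0.0286 and an adjusted p of 0.0635 over 20, so 0 passed the threshold. Without the first 2 and last 4 residues, which come largely from V and J, glycine was 16.5% ± 0.272 in spleen and 15.4% ± 0.150 in lymph node, and tyrosine 20.6% ± 0.103 in spleen and 22.0% ± 0.322 in lymph node. Both stayed apart there, as did alanine and glutamate, while phenylalanine, methionine, threonine, tryptophan and isoleucine overlapped. Lysine, leucine and arginine, lower in spleen, were apart there but not in the whole CDR3. Each residue apart there had an exact permutation test adjusted p of 0.0816 over 20. The trim leaves bases of the longer IGHJ1 and IGHJ4 ends, among them a tyrosine codon of IGHJ4. These shares therefore still hold part of J, and the part of J use in the tyrosine difference was not tested.

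Mismatched V bases were 0.670%, 0.667%, 0.513% and 0.499% in spleen, against 0.537%, 0.529%, 0.489% and 0.433% in lymph node, as means over IgM clonotypes from framework 2 onward. The groups overlapped (0.587% ± 0.0941 in spleen and 0.497% ± 0.0476 in lymph node, n = 4 each, SD; difference 0.0903; exact permutation test p = 0.229). The difference was larger, 0.265 percentage points, with clonotypes weighted by copies (exact permutation test p = 0.0571, adjusted p = 0.143). It was 0.154 percentage points among clonotypes found in both technical libraries (exact permutation test p = 0.0286, adjusted p = 0.0714). Clonotypes with 0 mismatches were 71.0% ± 1.51 in spleen and 73.2% ± 1.41 in lymph node (exact permutation test p = 0.171, n = 4 each).

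Clonotypes with 4 or more mismatches were 7.44% ± 1.69 in spleen and 5.91% ± 0.981 in lymph node (exact permutation test p = 0.229, n = 4 each). Among their mismatches, those that change the amino acid were 67.2%, 68.4%, 67.5% and 66.0% in spleen, against 63.5%, 63.4%, 64.4% and 63.4% in lymph node. The tissues did not overlap (exact permutation test p = 0.0286, adjusted p = 0.114 over 4 mutation measures).

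Clone size was compared at 65472 IgM copies, the depth of the smallest replicate. Distinct clonotypes expected at that depth numbered 15939, 36881, 51356 and 50764 in spleen, against 21588, 46779, 35579 and 39413 in lymph node. Their spread within a tissue was larger than the difference (38735 ± 16604 in spleen and 35840 ± 10577 in lymph node, n = 4 each, SD; exact permutation test p = 0.771). The 10 largest clonotypes held 5.15%, 9.73%, 3.93% and 3.03% of drawn copies in spleen, against 5.61%, 6.92%, 3.30% and 18.0% in lymph node (exact permutation test p = 0.543). Lymph node 4 stood highest, and without it the difference of the means was 0.183 percentage points in the other direction. With large clonotypes of 1 technical library removed, the difference was -0.898 percentage points, against -3.01 with all clonotypes.

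Among drawn clonotypes of 2 to 9 copies, mean CDR3 length was 11.4 ± 0.354 amino acids in spleen, against 12.2 ± 0.00693 in lymph node. The class held 9226, 3428, 3763 and 3483 clonotypes in spleen, against 13232, 7365, 15283 and 6145 in lymph node. Single-copy clonotypes were 36.6%, 89.3%, 92.2% and 92.5% of drawn clonotypes in spleen, against 37.4%, 84.0%, 56.7% and 84.3% in lymph node. A size class is thus not the same part of the repertoire in each replicate. V mutation in this class was 0.389% ± 0.0948 in spleen and 0.240% ± 0.0325 in lymph node, and neither measure overlapped (exact permutation test p = 0.0286, adjusted p = 0.0735 over 18, n = 4 each). The other size classes overlapped in both measures. Single-copy clonotypes had a mean CDR3 length of 12.3, 11.8, 11.9 and 11.9 amino acids in spleen, against 12.5, 12.2, 12.3 and 12.2 in lymph node (exact permutation test p = 0.0857, n = 4 each). Their V mutation was 1.24%, 0.640%, 0.498% and 0.472% in spleen, against 0.899%, 0.531%, 0.629% and 0.438% in lymph node (exact permutation test p = 0.686). In each replicate this was above the class of 2 to 9 copies. The part of sequencing or amplification error in single-copy clonotypes was not tested. Clonotypes of 10 or more copies had 11.8 ± 0.504 in spleen and 11.6 ± 0.252 in lymph node, a difference of 0.181 in the opposite direction (exact permutation test p = 0.543, n = 4 each). V mutation in the class of 10 or more copies was 0.745% ± 0.363 in spleen and 0.426% ± 0.0791 in lymph node (exact permutation test p = 0.143, n = 4 each). Among these clonotypes, which numbered 882, 471, 230 and 288 in spleen against 260, 115, 78 and 110 in lymph node, the IGHJ3 share was 8.55% ± 2.95 in spleen and 8.25% ± 2.98 in lymph node. These overlapped.

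IgM clonotypes were seen with other isotypes to different degrees. With 65472 IgM and 12430 IgD copies drawn per replicate, 0.391%, 0.225%, 0.159% and 0.161% of spleen IgM clonotypes were also drawn as IgD, against 1.01%, 1.36%, 1.11% and 1.40% of lymph node IgM clonotypes. Every lymph node replicate was above every spleen replicate (exact permutation test p = 0.0286, adjusted p = 0.0286 over 4 isotype measures). The 4 were the IgD share and the switched share, each at equal copies and over all copies. All 4 had the smallest p this test can give, so the adjustment could not raise it.

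With 7000 copies of IgG, IgA and IgE drawn, 0.558%, 1.22%, 0.240% and 0.296% of spleen IgM clonotypes were also drawn with a switched isotype, against 0.216%, 0.141%, 0.160% and 0.123% of lymph node IgM clonotypes. Here every spleen replicate was above every lymph node replicate (exact permutation test p = 0.0286, adjusted p = 0.0286). The margin between spleen 3 and lymph node 1 was small, and the part of the differing number of distinct clonotypes in these shares was not tested.

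**Figure D4:**
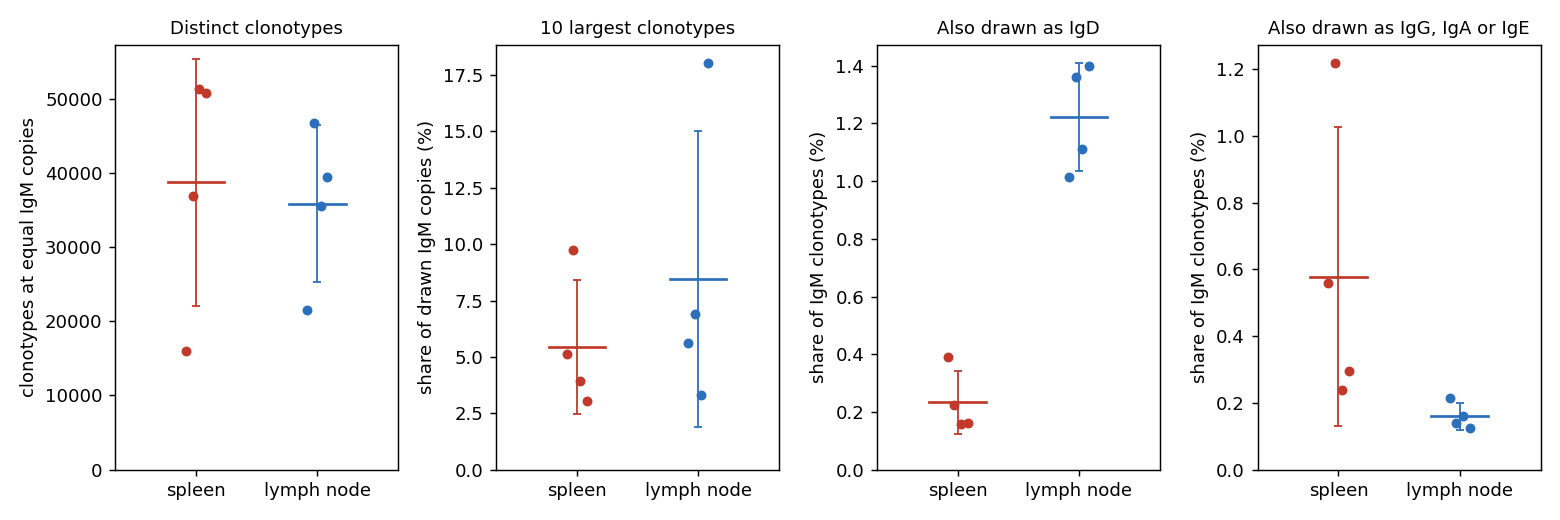
From left to right, distinct IgM clonotypes at equal IgM copies, the share of drawn copies held by the 10 largest, and the shares of drawn IgM clonotypes also drawn as IgD and as IgG, IgA or IgE (percent); 1 point per replicate, spleen left of lymph node, bars for the mean and whiskers for the SD (n = 4). The first 2 measures overlap between the tissues and the last 2 do not.

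Spleen and lymph node replicates of the same number shared more IgM clonotypes than those of different numbers. Numbers 1 to 4 shared 106, 3706, 1077 and 2360 clonotypes, which were 0.665%, 1.14%, 0.596% and 1.02% of the spleen clonotypes and 0.470%, 4.03%, 2.58% and 3.08% of the lymph node clonotypes. Per 1000000 pairs of clonotypes, same numbers shared 0.124 to 0.295 and different numbers 0.0332 to 0.0527. The means were 0.174 for same numbers and 0.0389 for different numbers, a ratio of 4.47 (exact one-sided permutation test over 24 pairings, p = 0.0417, the smallest it can give).

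Shared clonotypes had more copies each and shorter CDR3s than the others of their replicate, in all 8 replicates. A clonotype with more copies is more easily found in both tissues, so the copy difference follows in part from the definition. In numbers 2 to 4 shared clonotypes had a mean CDR3 length of 11.2 amino acids, against 11.9 for the other spleen clonotypes and 12.3 for the other lymph node clonotypes. They had 14.8 to 15.1 bases between the V and J matches in those numbers, and IGHJ3 was used by 4.61%, 5.39% and 5.08% of them. Among the other clonotypes of those numbers, IGHJ3 was used by 9.79%, 11.8% and 12.5% in spleen and 8.16%, 8.04% and 8.33% in lymph node. These values are descriptions with no test.

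**Figure D5:**
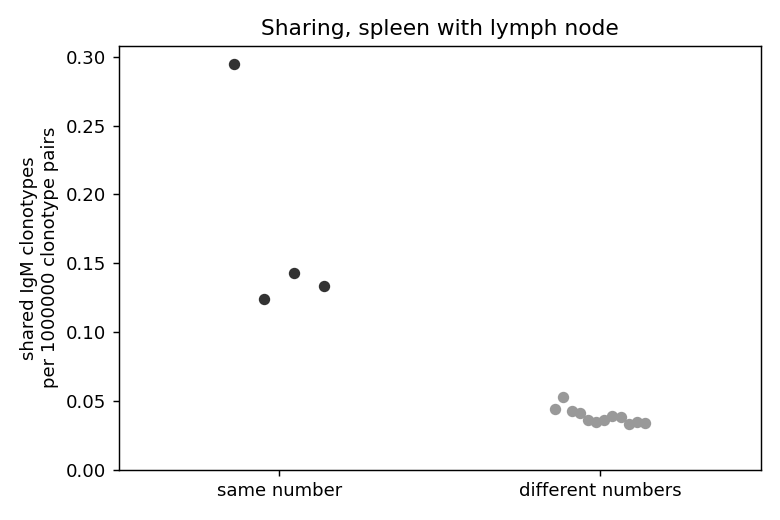
IgM clonotypes shared between a spleen and a lymph node replicate per 1000000 pairs of clonotypes, 1 point per pair of replicates, for pairs of the same number and of different numbers. The same-number pairs lie between 0.124 and 0.295, all above the 0.0332 to 0.0527 of the different-number pairs.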

How the data were processed

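Bulk heavy-chain transcripts were amplified with constant-region and V gene primers and a 10-nucleotide molecular identifier and read from framework 2 onward, per the labels' protocols. The deposited tables give a whole-number count per sequence, called copies here; per the file headers it is not stated whether these are reads or identifiers, so amplification can still affect copies. The deposited mismatch numbers and aligned lengths are other measurements, not normalized. The genome build was mm10, per the submitters' processing notes. No label or header names the aligner. The files give no D gene call, so D genes were not tested.

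Copies of both technical libraries were summed. V genes were tested on clonotypes per gene with edgeR 4.0.16 (R 4.3.3; TMM factors 0.874 to 1.08; its filter on low counts), with DESeq2 1.42.0 as an alternative. On simulated counts of 95 genes of which 20 were changed 4-fold, edgeR's test found 100% with 0 false calls. The simulated samples were independent, and 4-fold is more than the change of every called gene but IGHV3-1. The simulation therefore does not measure how the test does at the changes seen here. Single values had exact two-sided permutation tests over 70 arrangements, families of at least 1% being tested, with Benjamini-Hochberg adjustment within each kind of measure. The share of the 10 largest clonotypes was averaged over 100 draws of 65472 copies (Python 3.11.15, numpy 2.4.6, pandas 2.3.3, scipy 1.17.1, matplotlib 3.10.9). Distinct clonotypes and isotype shares were expected values at equal copies. The size classes and the equal-copies alternative came from a single draw. Named V genes were up to 10 per direction with adjusted p under 0.05, by fold size. Named clonotypes were the 5 with the most copies in each presence class. IgM copies per library ranged between 31766 and 378138 (spleen) and between 35550 and 83032 (lymph node); limits from a count of 0 (3 counts) cover counting error only. The alternatives were copy weights, no single-copy clonotypes, both technical libraries, equal copies, lineages (85% identical CDR3 nucleotides), no filter, a replicate block and leaving out each replicate. Members, lists and tests were chosen with earlier results of these data known. The junction, J by V family, mutation-class, isotype and size-class measures were added after the data were seen.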

Additional observations from a re-analysis of the deposited data

Results flagged for a closer look

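The IGHV14-1 share of lymph node 2, 0.0609% of IgM clonotypes, was the lowest of the 4, and its gap to the others (0.0665% to 0.0671%) was large for the range of the group by Dixon's test. It was 1 flag among 78 groups checked (1.28%), and chance flags about 1 in 20.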

How the results depend on the processing

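The count of V genes called was 39, and 22 among clonotypes found in both technical libraries (65 genes tested) and 20 with clonotypes weighted by copies. Leaving out 1 replicate gave 26 to 53 calls, the lowest without lymph node 2, and numbers 2 to 4 of both tissues alone, chosen after the data were seen, gave 33. J genes past the threshold were 0, and 3 without single-copy clonotypes, among clonotypes in both technical libraries and at equal IgM copies, and 0 to 3 with 1 replicate left out, the 3 without lymph node 2. IGHJ1 turned to -0.779 percentage points with lineages. Residues past the threshold were 0, and 0 to 13 with 1 replicate left out, the 13 without spleen 2. The difference in distinct clonotypes was 2895, and -2416 with lineages, -155 at 10000 copies and -1855 to 10494 with 1 replicate left out; it was -1312 without spleen 3, -1114 without spleen 4 and -1855 without lymph node 1. The difference in the 10 largest was -3.01 percentage points and ran from -4.73 to 0.183 with 1 replicate left out, the last without lymph node 4; it was -1.89 with lineages and -0.898 without large clonotypes of 1 technical library. The causes were not tested. Removing large clonotypes of 1 technical library, an alternative chosen after the data were seen, left 39 V genes called. The V mutation difference was 0.0903 percentage points, and 0.265 with copy weights and 0.154 among clonotypes in both technical libraries. Mean CDR3 length kept its direction in every alternative run, from -0.840 among clonotypes in both technical libraries to -0.275 with lineages, and was -0.549 without single-copy clonotypes. The replicate block gave 34 V genes, and with 4 pairs exact sign flips cannot go below p = 0.125. Same-numbered samples correlated at 0.163, 0.0274, 0.0667 and -0.145 in their V gene deviations. The main tests did not take the numbers as pairs. Same numbers did share more clonotypes than different numbers (ratio 4.47), so these tests may treat linked samples as independent. D genes were not run.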
